A study of Mus musculus with 12 samples.

Results

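Heat shock proteins and chaperones form a set of 89 protein-coding genes, chosen by their names among the 55487 genes of the deposited count table. The set holds the genes named Hspa, Hspb, Hspd, Hspe, Hsph, Hsp90 or Hspbp, the Dnaja, Dnajb and Dnajc genes, the Bag genes and the numbered Cct genes. Hspb6, which lies within 5 Mb of Rinl, was left out as the only gene of these names near the altered locus. By family the set holds 14 HSP70 genes, 3 HSP90 genes, 3 HSP60 and HSP10 genes, 7 small HSP genes, 2 HSP70-binding genes, 4 DNAJA, 13 DNAJB and 28 DNAJC genes, 6 BAG genes and 9 CCT genes. At least 1 read was counted for 83 of the 89 genes, and 73 passed the filter on low counts and were tested.

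Messenger RNA was profiled in CD4+ T cells sorted from spleen and peripheral lymph nodes of wild-type (WT) and Rinl-KO mice, 2 genotypes that were each sorted into naive and effector cells. Rinl encodes a guanine nucleotide exchange factor of the RAB5 small GTPases. The states were told apart by surface markers, among them CD44, of which the naive cells taken had little and the effector cells much. Each of the 4 groups held 3 libraries, here numbered as in the deposited tables: 1 to 3 are WT naive, 4 to 6 WT effector, 7 to 9 KO naive and 10 to 12 KO effector. No treatment is named for any group, and the labels do not state the age of the mice, the deleted part of Rinl, any pooling of animals or whether libraries came from separate mice. P-values therefore measure the spread between libraries, which may be technical.

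Chaperones bind proteins that are not fully folded and help them fold, move between compartments or reach the proteasome. HSP70 proteins work in cycles of ATP hydrolysis that J-domain proteins (the DNAJ families) start and that nucleotide exchange factors, such as HSPH1 and the BAG proteins, complete, while HSP90 and the ring-shaped CCT complex finish the folding of kinases, receptors, actin and tubulin. Separate chaperones serve the endoplasmic reticulum and the mitochondria, and in the cytosol a subset is induced by heat shock factor 1 when unfolded proteins build up. In T cells, activation raises protein synthesis and secretion, and with them the demand for folding.

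Promoter sequences are shown first for the genes on which the later results turn, because the heat shock and endoplasmic reticulum (ER) stress programmes are each read from a known DNA motif. They are the 250 bases before a RefSeq transcript start (build GRCm38.p6), written 5′ to 3′ on the gene's strand, with motif matches in capitals. The table held an entry for 72 of the 89 genes, with 91 windows in all. The ER stress element was searched on both strands as CCAAT and CCACG with 9 bases of any kind between them, which reads CGTGG and ATTGG with the same spacing on the other strand. It was found in 3 of the 72 genes and in 0.130% of 27025 genes with an entry. These 3 genes encode the ER HSP70 BiP (Hspa5, chr2:34771840-34772089, plus strand), the ER HSP90 GRP94 (Hsp90b1, chr10:86705445-86705694, minus strand) and the BiP partner ERdj6 (Dnajc3, chr14:118937682-118937931, plus strand), and Hsp90b1 held 2 matches in opposite orientation.
Hspa5: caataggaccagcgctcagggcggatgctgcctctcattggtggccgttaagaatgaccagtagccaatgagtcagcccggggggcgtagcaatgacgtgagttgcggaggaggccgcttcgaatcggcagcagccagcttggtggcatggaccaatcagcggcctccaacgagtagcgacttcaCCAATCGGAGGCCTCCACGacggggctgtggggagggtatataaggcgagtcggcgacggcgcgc
Hsp90b1: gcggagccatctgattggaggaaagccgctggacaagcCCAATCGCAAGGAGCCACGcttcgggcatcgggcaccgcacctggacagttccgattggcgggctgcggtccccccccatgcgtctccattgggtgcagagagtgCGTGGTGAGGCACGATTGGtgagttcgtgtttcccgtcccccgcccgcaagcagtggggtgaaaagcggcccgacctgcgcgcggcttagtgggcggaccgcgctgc
Dnajc3: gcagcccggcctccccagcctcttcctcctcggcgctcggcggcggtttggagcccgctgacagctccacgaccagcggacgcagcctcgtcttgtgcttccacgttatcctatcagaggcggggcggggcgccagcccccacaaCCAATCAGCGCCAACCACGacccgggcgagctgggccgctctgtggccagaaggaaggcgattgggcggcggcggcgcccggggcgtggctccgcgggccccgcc
A match is a description of the letters in the window and not a measured binding site.

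The heat shock element is a run of inverted GAA units. With 3 units it was searched on both strands as TTCNNGAA followed by NNTTC, or GAANNTTC followed by NNGAA, and found in 3 of the 72 genes (Dnajb6, Hspd1 and Hspe1), against 0.514% of all genes with an entry. With 2 units (TTCNNGAA or GAANNTTC, which every 3-unit match also contains) it was found in 16 of the 72 genes, or 22.2%, against 14.6% of all genes. Hspe1 (HSP10) and Hspd1 (HSP60) are read in opposite directions from starts a short distance apart, and the window of Hspe1 (chr1:55087898-55088147, plus strand) holds the overlapping matches that the window of Hspd1 reads on the other strand. The other windows shown are those of the J-domain genes Dnaja1 (chr4:40722218-40722467, plus strand) and Dnajb1 (chr8:83607925-83608174, plus strand) and of Hsph1 (chr5:149636337-149636586, minus strand), which were the higher genes in KO cells described below.
Hspe1: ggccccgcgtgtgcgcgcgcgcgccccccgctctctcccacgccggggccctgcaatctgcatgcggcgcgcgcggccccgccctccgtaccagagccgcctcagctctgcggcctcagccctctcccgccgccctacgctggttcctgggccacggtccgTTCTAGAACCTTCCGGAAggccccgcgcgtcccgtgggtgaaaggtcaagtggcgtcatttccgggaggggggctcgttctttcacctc
Dnaja1: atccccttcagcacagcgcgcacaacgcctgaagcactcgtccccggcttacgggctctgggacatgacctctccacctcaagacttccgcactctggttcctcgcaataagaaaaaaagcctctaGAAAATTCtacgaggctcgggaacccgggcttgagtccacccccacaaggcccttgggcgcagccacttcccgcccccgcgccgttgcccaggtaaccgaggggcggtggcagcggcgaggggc
Dnajb1: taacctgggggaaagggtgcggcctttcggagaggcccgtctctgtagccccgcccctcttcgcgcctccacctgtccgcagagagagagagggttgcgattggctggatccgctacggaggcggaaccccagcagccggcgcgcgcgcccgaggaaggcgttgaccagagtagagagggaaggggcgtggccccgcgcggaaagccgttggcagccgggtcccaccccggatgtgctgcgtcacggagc
Hsph1: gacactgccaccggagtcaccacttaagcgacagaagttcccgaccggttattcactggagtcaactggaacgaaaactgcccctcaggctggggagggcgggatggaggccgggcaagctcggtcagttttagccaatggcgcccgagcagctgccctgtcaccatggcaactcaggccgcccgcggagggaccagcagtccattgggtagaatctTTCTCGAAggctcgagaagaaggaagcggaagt
Dnaja1 and Hsph1 each held a 2-unit match, 117 to 124 and 26 to 33 bases before the start, and no match lay in this window of Dnajb1. Other transcript starts of Dnaja1 and Dnajb1 had windows of their own, without a match. Genes without an entry included Bag4, Cct4, Dnajc11, Dnajc12, Dnajc18, Dnajc2, Dnajc22, Dnajc30, Dnajc5, Dnajc5b, Hsp90aa1, Hsp90ab1, Hspa13, Hspa8, Hspa9 and Hspb2.

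Levels between genes were compared as FPKM, the deposited values per gene length. In WT naive cells 44 of the 89 genes had a mean FPKM of at least 10, 23 lay from 1 to 10 and 22 lay under 1. The constitutive cytosolic chaperones led: Hsp90ab1 (HSP90 beta) had 459 ± 9.8 FPKM (SD, n = 3) and Hspa8 (HSC70, the constitutive HSP70) 345 ± 22. The CCT subunits Cct2 and Cct5 followed at 153 ± 3.0 and 151 ± 2.3 FPKM, which did not differ beyond their spread, and Hsp90b1 was next at 94.9 ± 3.4. Cct4 (88.5 ± 2.4) and Cct8 (88.4 ± 1.4) were level with each other, as were Hspe1 (68.8 ± 2.1), Hspa5 (67.5 ± 2.6), Cct3 (67.3 ± 3.7) and the mitochondrial HSP70 gene Hspa9 (67.0 ± 1.0). The subunits of the CCT ring, which stand in equal number in the complex, thus spanned 67.3 to 153 FPKM among the 7 that were abundant. In WT effector cells Hsp90ab1 (462 ± 27) and Hspa8 (291 ± 7.1) were still first, Hsp90b1 came next at 135 ± 7.6, and Hspa5 reached 124 ± 7.9, level with Cct2 (124 ± 5.1) and Cct5 (123 ± 4.8).

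**Figure D1:**
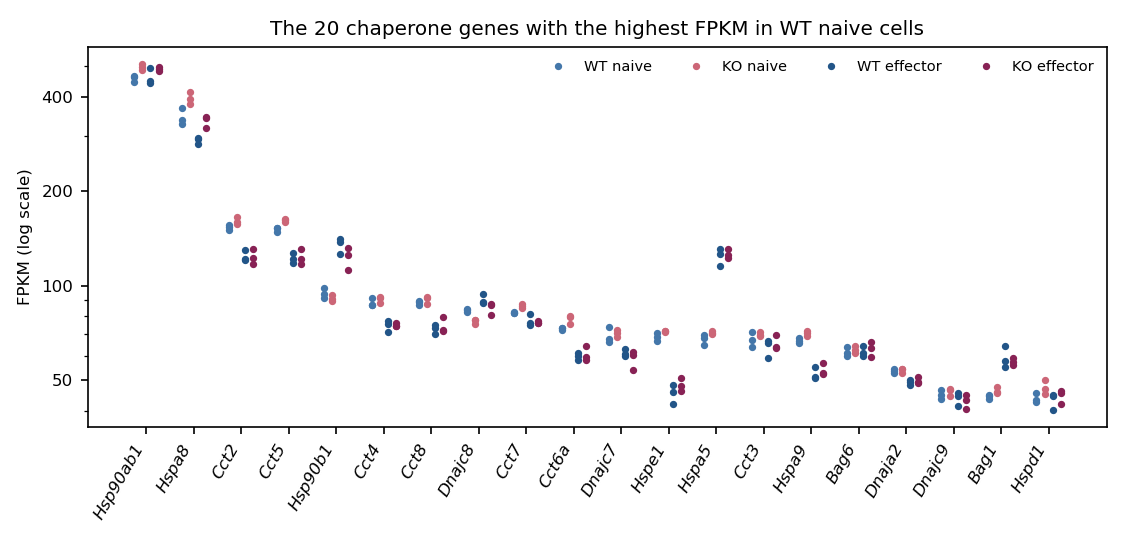
FPKM on a log axis for the 20 chaperone genes with the highest mean in WT naive cells, with 1 point per library and colours for the 4 groups. Hsp90ab1 and Hspa8 stand above the others in all groups, and Hspa5 and Hsp90b1 are higher in effector than in naive libraries.

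The stress-inducible genes Hspa1a, Hspa1b and Hspb1 were close to 0 in all 12 libraries, unlike several genes of the heat shock list described below. Levels from here on are library-scaled counts (CPM) after TMM normalisation, which compare libraries for 1 gene. Hspa1b, 1 of the 2 stress-inducible HSP70 genes, had 0.11 to 1.01 CPM, and its near-identical copy Hspa1a 0 to 0.37 CPM. Reads that fit both copies may have been split or dropped in counting, so both values are uncertain. Hspb1 (HSP25) had 0 to 0.47 CPM, and the other small HSP genes of the set were near or at 0 except Hspb11, a ciliary transport subunit that is grouped here by its name. No read was counted for Dnajb7, Dnajb8, Dnajc5b, Dnajc5g, Hspb3 and Hspb8, which allows up to 3 counts a library for each, counting error only. Besides these 6 genes, Cct8l1, Dnajb3, Dnajc22, Hspa12b, Hspa1a, Hspa1l, Hspb1, Hspb2, Hspb7 and Hspb9 were too low to test.

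Total counts ran from 11606251 to 24320247 per library, and the set took 0.755% to 0.829% of them. Rinl had 285.5 to 298.8 CPM in WT naive and 32.2 to 34.4 CPM in KO naive libraries, and 437.0 to 462.5 against 45.8 to 49.4 CPM in effector libraries. The sort marker Cd44 differed as labelled, with 17.1 to 21.1 CPM in the naive and 221.3 to 259.1 CPM in the effector libraries. The 7 CD4 T cell marker genes were all expressed. Of the 2 CD8 genes, Cd8a was at or below 0.58 CPM. With Cd8b1, however, their sum was 19.5 to 21.8 CPM in naive and 5.52 to 8.04 CPM in effector libraries. In these bulk samples, fewer cells of a type and less RNA per cell cannot be told apart.

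In naive cells without Rinl, the cytosolic J-domain genes Dnaja1 and Dnajb1 rose, and none of the 73 tested chaperone genes fell. DNAJA1 and DNAJB1 are the main partners that start the HSP70 cycle in the cytosol. The 2 genes were 2 of 73 tested, where 0.679% of all 15905 tested genes rose and 0.497% fell (1.18% in all), in edgeR's quasi-likelihood test at an adjusted p under 0.05. In effector cells without Rinl the same 2 genes rose again, together with Hspa8, Hsph1 and Dnajb14, and Dnajc15 fell. These were 5 higher and 1 lower of 73, where 1.45% of all tested genes rose and 1.72% fell (3.16% in all). The count of higher genes in naive cells was 1 without library 8. In effector cells it was 3, 3, 2, 1 and 3 without library 2, 5, 6, 11 and 12, and the count of lower genes was 0 without library 5, 6, 8, 9, 11 or 12. With limma on log2 FPKM, Dnaja1 in effector cells was the gene that passed. The naive and effector comparisons share no library, but both come from 1 fit whose estimate of the spread used all 12 libraries. Whether naive and effector cells came from the same mice is not stated. Over the 73 genes the median log2 fold change was 0.02 in naive and 0.03 in effector cells, against 0.00 and 0.00 for all tested genes.

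Dnaja1 (ENSMUSG00000028410, chr4:40722150-40737149, plus strand) had 116.4, 119.7 and 116.3 CPM in the WT naive libraries and 130.1, 150.9 and 148.8 CPM in the KO naive libraries. In effector cells it had 104.2, 108.5 and 98.9 CPM in WT and 125.3, 130.3 and 134.3 CPM in KO. All KO libraries lay above all WT libraries of the same cell state, and among the KO naive libraries number 7 was the closest to WT. The log2 fold change was 0.29 ± 0.05 (SE; adjusted p = 0.0061) in naive and 0.32 ± 0.05 (adjusted p = 0.0013) in effector cells, which is 1.22-fold and 1.25-fold. Without library 8 the naive value was 0.26 with an adjusted p of 0.054, so that call rests on this library. The call in effector cells was kept under all 20 alternatives run. Dnaja1 overlaps Smu1, a splicing gene on the other strand, over 608 of its 8629 exon bases, and how the counting treated strand is not stated. Smu1 itself had log2 fold changes of 0.00 and -0.13 (adjusted p = 0.99 and 0.18).

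Dnajb1 (ENSMUSG00000005483, chr8:83608193-83612653, plus strand), the HSP40 that works with HSC70 in dissolving aggregates, had 86.3, 92.3 and 93.5 CPM in the WT naive and 105.7, 119.7 and 113.4 CPM in the KO naive libraries. It had 69.4, 75.1 and 75.1 CPM in the WT effector and 82.5, 95.2 and 88.4 CPM in the KO effector libraries. KO and WT libraries did not overlap in either cell state, and in each genotype all effector libraries lay below all naive libraries. The log2 fold change was 0.32 ± 0.06 (adjusted p = 0.0045) in naive and 0.28 ± 0.06 (adjusted p = 0.0087) in effector cells. Without library 11 the effector value was 0.22 with an adjusted p of 0.088.

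Hspa8 (ENSMUSG00000015656, chr9:40800984-40810087, plus strand) had 791.4, 817.4 and 888.3 CPM in the WT naive and 912.6, 992.6 and 946.5 CPM in the KO naive libraries. In effector cells it had 706.9, 714.1 and 680.2 CPM in WT and 766.6, 825.2 and 832.4 CPM in KO. The groups did not overlap in either state, but in naive cells library 3 came close to library 7. The log2 fold change was 0.21 ± 0.05 (adjusted p = 0.022) in effector cells. In naive cells it was 0.19 ± 0.05 with an adjusted p of 0.058, which did not pass. In effector cells the call ended without library 6, 11 or 12 (adjusted p = 0.097, 0.094 and 0.063) and in a fit of the 2 groups alone (0.075), while in naive cells a call was gained in 8 of 20 alternatives, among them DESeq2 (adjusted p = 0.011), limma-voom (0.034) and the fits without library 3, 5, 10 or 11 (0.022, 0.047, 0.038 and 0.042).

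Hsph1 (ENSMUSG00000029657, chr5:149614287-149636376, minus strand), the HSP110 that exchanges the nucleotide on HSC70, had 58.4, 54.9 and 45.9 CPM in the WT effector and 63.1, 70.6 and 70.8 CPM in the KO effector libraries. The groups did not overlap, and the WT libraries were the more spread. The log2 fold change was 0.36 ± 0.09 (adjusted p = 0.034). In naive cells it had 55.3, 51.6 and 46.3 CPM in WT and 53.5, 61.6 and 62.7 CPM in KO, where library 7 lay within the WT range and the value of 0.21 ± 0.09 did not pass (adjusted p = 0.36). The effector call ended without library 2, 5, 6, 11 or 12, with adjusted p-values from 0.054 to 0.18. With no filter on low counts the naive value passed (adjusted p = 0.030).

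**Figure D2:**
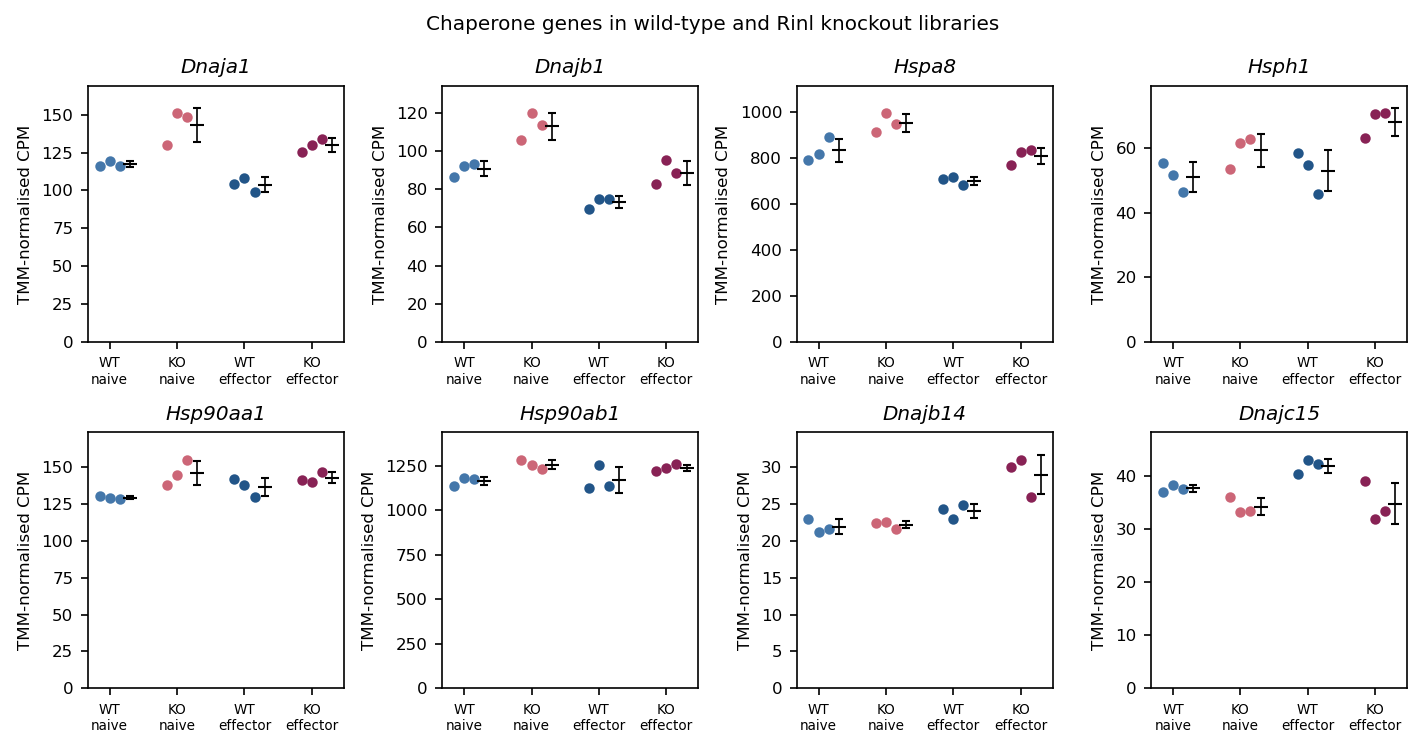
TMM-normalised CPM of 8 chaperone genes in each library (points) with the mean and SD of the 3 libraries of each group (bars), on axes that start at 0. KO libraries lie above WT libraries of the same state for Dnaja1, Dnajb1 and Hspa8, and for Hsph1 in effector cells. Dnajb14 is higher and Dnajc15 lower in KO effector cells.

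The 4 genes belong to a list of 15 chaperone genes, here called the heat shock list, of which 13 were tested. Hspa8 and Hsp90ab1, described above as constitutive, are part of it, as is the stress-inducible Hspa1b, which was close to 0. Of these, 2 rose in KO naive and 4 in KO effector cells, where 0.679% and 1.45% of all tested genes rose, and none fell. The counts were 1 without library 8 in naive cells and 2, 1 and 2 without library 6, 11 and 12 in effector cells. All 13 had a log2 fold change above 0 in each cell state, with medians of 0.16 and 0.14, where 48 of the 73 chaperone genes and 7929 of all 15905 tested genes were above 0 in naive cells, and 48 and 8071 in effector cells. The list was chosen with earlier results of these data known and holds the 4 called genes, so these counts are a description and not a separate test. The HSP90 genes were among those that did not pass in edgeR. Hsp90aa1 (HSP90 alpha, the inducible form) had 128.8 to 130.3 CPM in WT naive and 138.3 to 155.0 in KO naive libraries (0.17 ± 0.05, adjusted p = 0.080), and 129.8 to 141.7 against 139.9 to 147.1 CPM in effector libraries (0.06 ± 0.05, adjusted p = 0.57). The naive value of Hsp90aa1 was called in 4 of 20 alternatives: DESeq2 (adjusted p = 0.047), no filter on low counts (0.030), a fit of the 2 groups alone (0.024) and without library 7 (0.042). Hsp90ab1 had values of 0.11 ± 0.05 and 0.08 ± 0.05 (adjusted p = 0.31 and 0.39). Bag3, an HSF1 target that guides clients of HSP70 to autophagy, had 7.9 to 9.6 CPM in WT naive and 8.9 to 10.5 in KO naive libraries, and 18.6 to 19.5 against 18.4 to 23.4 CPM in effector libraries, with overlap in both states. Hspa1b, at 1.01 CPM or less, had the largest fitted values of the list (0.57 and 0.86) with standard errors of 0.58 and 0.46. The 3 genes whose windows held a 3-unit heat shock element, Dnajb6, Hspd1 and Hspe1, were not called in either KO comparison in edgeR.

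**Figure D3:**
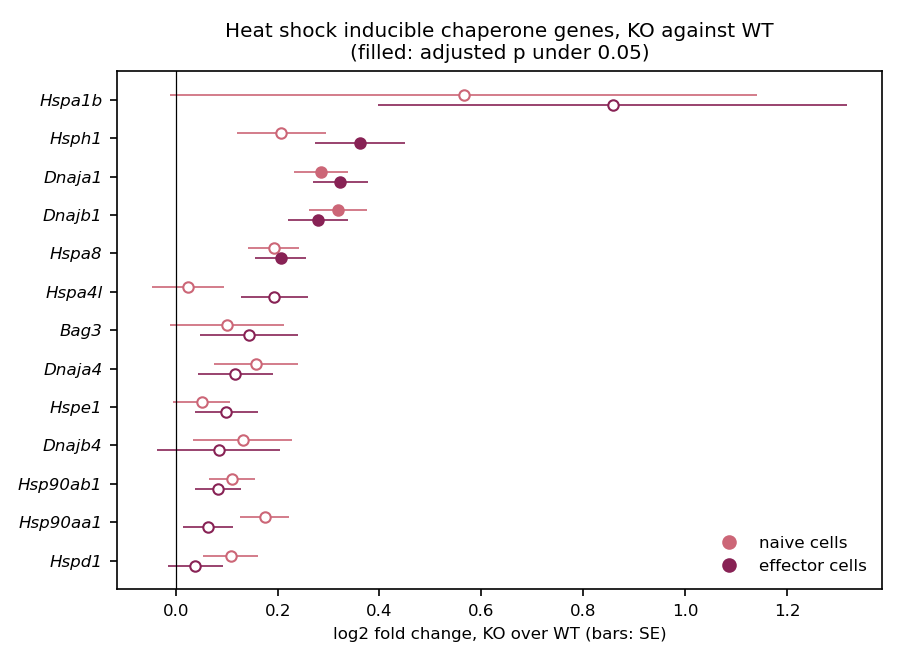
Log2 fold change of KO over WT with its SE for the 13 tested genes of the heat shock list, in naive and in effector cells, with filled points for an adjusted p under 0.05. All points lie right of 0, and 2 naive and 4 effector points are filled.

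The summed level of the 15 genes was 2545 to 2674 CPM in WT naive and 2857 to 2972 in KO naive libraries, and 2392 to 2583 against 2657 to 2781 CPM in effector libraries, most of it from Hspa8 and Hsp90ab1. The groups did not overlap in either state. The KO naive libraries were also the deepest, with 20072199 to 24320247 counts against 12409965 to 19584111 in WT naive, whereas the depths of the effector groups overlapped (12893396 to 16428862 in WT, 11606251 to 20381010 in KO). A list of 12 immediate early genes that respond to cell handling had sums of 848.8 to 924.5 CPM in WT naive and 890.9 to 915.2 in KO naive libraries, and 957.4 to 985.6 against 913.2 to 1139 CPM in effector libraries. Its groups overlapped, but 1 of its 11 tested genes, Fos, rose in both states (0.80, adjusted p = 0.0098, and 0.63, adjusted p = 0.030). Of all tested genes 0.679% rose in naive and 1.45% in effector cells. The part of depth or of cell handling in the chaperone values was not tested.

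Markers of other cells moved with genotype in some lists. The plasma cell list summed to 0.59 to 3.07 CPM in WT naive and 4.30 to 8.03 in KO naive libraries, and to 2.89 to 4.92 against 6.79 to 10.96 CPM in effector libraries. None of its 3 tested genes of 5 passed. In each state 1 of the 3 was higher without overlap, where 10.7% and 9.18% of all tested genes were. Another gene of the list, Mzb1, was at 0 in 10 libraries and at most 0.05 CPM in the other 2. The B cell list had 2.05 to 3.76 against 4.71 to 6.403 CPM in naive and 25.1 to 33.5 against 24.3 to 31.2 CPM in effector libraries. Of its 7 tested genes 1 was lower in KO effector cells (Cd22), where 1.72% of all tested genes were. The myeloid list had 28.2 to 37.2 against 38.5 to 47.4 CPM in naive and 41.4 to 64.0 against 50.3 to 72.9 CPM in effector libraries, with none of 6 tested genes called. The NK list had 6.05 to 7.41 against 6.86 to 8.89 CPM in naive and 165 to 173 against 111 to 144 CPM in effector libraries. Of its 4 tested genes 2 were lower in KO effector cells (Klrb1c and Klrk1), where 1.72% of all tested genes were. Its gene Ncr1 had 0.87 CPM or less. The CD8 list had 19.5 to 20.8 against 19.8 to 21.8 and 5.52 to 6.70 against 7.19 to 8.04 CPM, and the erythroid and platelet list 3.997 to 20.5 against 3.69 to 5.83 and 3.62 to 22.2 against 8.04 to 8.93 CPM, with no call. Their part in the chaperone values was not tested.

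Outside the heat shock list, 2 chaperone genes were called in KO effector cells. Dnajb14, a J-domain protein anchored in the ER membrane, had 24.3, 23.0 and 24.9 CPM in WT and 30.0, 31.0 and 26.0 CPM in KO effector libraries. The groups did not overlap, with library 12 the nearest to WT, and the log2 fold change was 0.28 ± 0.07 (adjusted p = 0.041). The naive value was 0.02 ± 0.08, and the KO effects of the 2 states differed by 0.26 ± 0.11 (adjusted p = 0.43 in edgeR). Dnajc15, a J-domain protein of the mitochondrial inner membrane, had 40.4, 43.1 and 42.3 CPM in WT and 39.1, 31.9 and 33.4 CPM in KO effector libraries. It fell by 0.27 on the log2 scale (SE 0.07, adjusted p = 0.035), with library 10 the nearest to WT, and had -0.14 ± 0.07 in naive cells. Dnajb14 kept its call in 6 and Dnajc15 in 11 of 20 alternatives. Leaving out any 1 of libraries 2 to 11 ended the call of Dnajb14 (adjusted p = 0.052 to 0.25, the highest without library 11). Leaving out library 5, 6, 8, 9, 11 or 12 ended that of Dnajc15 (adjusted p = 0.050 to 0.25, the highest without library 11).

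No member of the CCT, BAG, HSP60 and HSP10, HSP90 or HSP70-binding families passed in either KO comparison in edgeR, though Hsp90aa1 did in the alternatives given above. All 8 tested CCT genes had a value above 0 in naive cells, from 0.02 to 0.23 with a median of 0.06. The highest value was that of Cct6b, which was barely expressed. Of the 8 genes 4 did not overlap between groups, but the median in effector cells was 0.01. Counted by overlap, 16 chaperone genes had all KO naive libraries above all WT naive libraries and 8 had them below, where 10.7% and 9.72% of all tested genes did. In effector cells 10 were above and 3 below, where 9.18% and 8.73% of all tested genes were. The genes higher without overlap in both states were Dnaja1, Dnajb1, Hspa8 and Hspa14, a ribosome-bound HSP70 whose values of 0.05 and 0.07 did not pass. Hspa14 shares 321 of its 4057 exon bases with Gm45902 on the same strand, which was also higher without overlap in both states (0.23, adjusted p = 0.54, and 0.47, adjusted p = 0.045), so its values are uncertain. At an unadjusted p under 0.05, the naive comparison held 10 of 73 chaperone genes, where 11.9% of all tested genes did, and the effector comparison 12, where 16.1% did. Both counts are near the shares of all tested genes.

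The difference of the KO effects between effector and naive cells was called for none of the 73 genes in edgeR, where 0.145% of all tested genes were called. At an unadjusted p under 0.05 it held 2 genes (Dnajb14 and Hspa12a), where 9.19% of all tested genes did, and DESeq2 and limma-voom also called none. For Dnaja1 the difference was 0.04 (95% interval -0.11 to 0.19), for Dnajb1 -0.04 (-0.20 to 0.12), for Hspa8 0.01 (-0.12 to 0.15) and for Hsph1 0.15 (-0.09 to 0.40). A p that misses the threshold does not show that the effects were equal.

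Chaperone partners outside the named families were not called in the KO comparisons, apart from 1 ER gene. Of 28 other cochaperones and heat shock factors, 27 were tested and none passed in either state. Hsf1, which drives the heat shock response, had 83.1 to 86.4 CPM in WT naive and 83.2 to 87.6 in KO naive libraries, with log2 fold changes of 0.01 and 0.02. None of 11 other mitochondrial proteostasis genes passed. Of 20 other ER stress genes none passed in naive cells and 1 fell in effector cells, where 1.72% of all tested genes fell. Ern1, the ER stress sensor IRE1 alpha, was this gene. It had 58.6, 58.1 and 72.5 CPM in WT and 52.0, 48.6 and 47.2 CPM in KO effector libraries. Its value was -0.36 ± 0.08 (adjusted p = 0.015), with the groups apart and library 6 the highest, and without that library it was -0.24 (adjusted p = 0.12). Without library 11 or 12 the adjusted p was 0.089 and 0.055. Of the 20 ER stress genes, 12 had a value below 0 in naive and 17 in effector cells. Of all 15905 tested genes 7898 and 7834 did.

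More chaperone genes were called between effector and naive cells than between the genotypes. In WT cells 16 chaperone genes were higher and 26 lower in effector cells, 42 of 73, where 30.2% of all tested genes rose and 25.9% fell (56.2% in all). The share called was thus close to that of all tested genes. The higher genes included the ER chaperones Hspa5 and Hsp90b1, and the lower ones 5 CCT genes, Hspe1, Hspa9, Hspa8, Dnaja1 and Dnajb1. The median over the 73 genes was -0.04, against 0.01 for all tested genes. These WT values share libraries with the KO comparisons above.

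**Figure D4:**
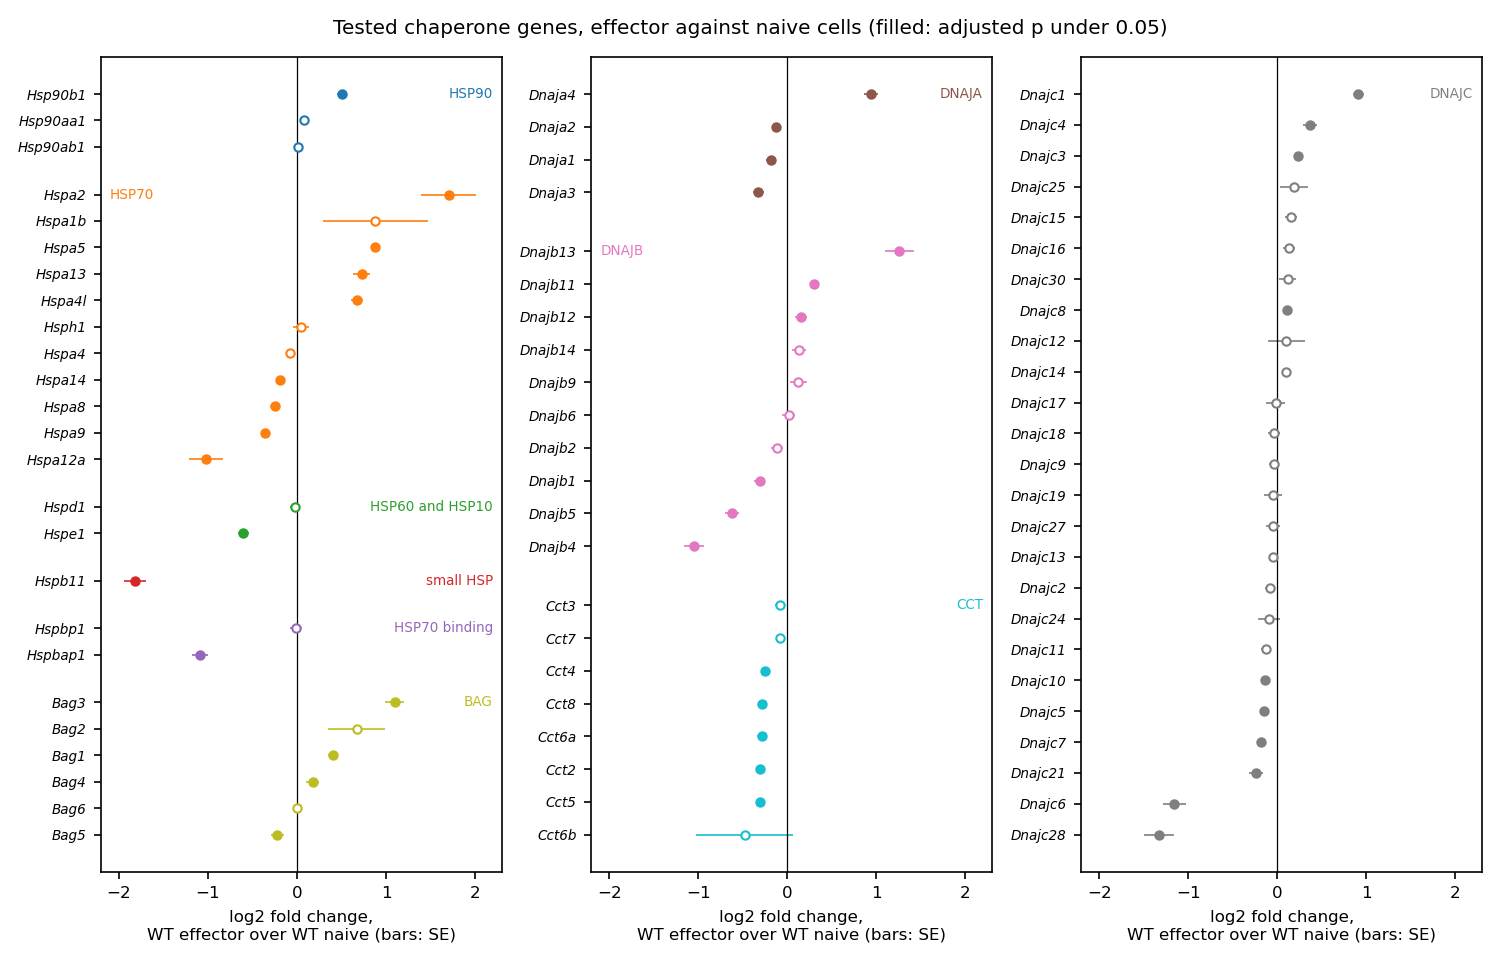
Log2 fold change of WT effector over WT naive cells with its SE for 72 of the 73 tested chaperone genes, grouped by family, with filled points for an adjusted p under 0.05. Hspa5 and Hsp90b1 lie right of 0, the CCT genes left of it, and Hspb11 is the farthest left.

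Of 13 ER chaperone genes, 7 rose and 1 fell in WT effector cells, where 30.2% of all tested genes rose and 25.9% fell, with a median of 0.19. Hspa5, which encodes BiP, the HSP70 of the ER, had 265.0, 245.1 and 256.5 CPM in WT naive and 477.4, 495.4 and 436.1 CPM in WT effector libraries. All effector libraries lay far above all naive ones, and the log2 fold change was 0.88 ± 0.05 (adjusted p = 1.6e-13). Hsp90b1 (GRP94, which folds integrins and Toll-like receptors) had 281.2, 261.6 and 267.7 against 390.5, 401.4 and 359.0 CPM, again with no overlap, and rose by 0.51 ± 0.05 (adjusted p = 2.95e-08). The J-domain partners of BiP did not move alike. Dnajc3 had 206.1, 199.3 and 191.8 against 237.3, 232.1 and 233.4 CPM (0.23 ± 0.05, adjusted p = 0.00012), and Dnajb11 (ERdj3) 80.1 to 86.2 against 96.8 to 107.0 CPM (0.31 ± 0.05). Dnajc1 (ERdj1), which recruits BiP to ribosomes, rose by 0.91 ± 0.06 from 41.9 to 49.3 CPM to 84.9 to 90.9 CPM, and overlaps Mllt10 on the other strand, which fell by 0.44 on the log2 scale. Hspa13, an ER HSP70, rose by 0.73 ± 0.09, while Dnajb9 (ERdj4) did not pass (0.12 ± 0.10, adjusted p = 0.28) and Dnajc10 (ERdj5) fell by 0.14 on the log2 scale (SE 0.05, adjusted p = 0.027). The 3 genes whose windows held the ER stress element, Hspa5, Hsp90b1 and Dnajc3, were all among the 7 that rose. Dnajb11 and Dnajc1 also rose, without this element in their windows.

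Other ER stress genes were also mostly higher. Of 20, 16 rose in WT effector cells, where 30.2% of all tested genes did, and none fell, with a median of 0.30. The stress sensors Atf6 and Ern1 rose by 2.41 ± 0.09 and 1.83 ± 0.09, and Xbp1, the factor that the Ern1 product activates by splicing, by 0.77 ± 0.06. Among folding enzymes, Sdf2l1 rose by 1.06 ± 0.11, and the disulfide isomerases Pdia6 and Pdia3 by 0.51 ± 0.05 and 0.47 ± 0.04. The summed ER chaperone level was 1094 to 1140 CPM in WT naive and 1477 to 1587 in WT effector libraries, and 1083 to 1120 against 1446 to 1553 CPM in KO libraries. The B cell, NK and myeloid marker sums given above were also higher in effector than in naive libraries of the same genotype, without overlap. The plasma cell sums had higher means in effector libraries, but the states overlapped in both genotypes. The part of these marker lists in the ER values was not tested. Of the 3 tested plasma cell genes 2 rose in WT effector cells, where 30.2% of all tested genes did, and none fell. Another gene of that list, Mzb1, was at 0 in all 6 WT libraries.

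**Figure D5:**
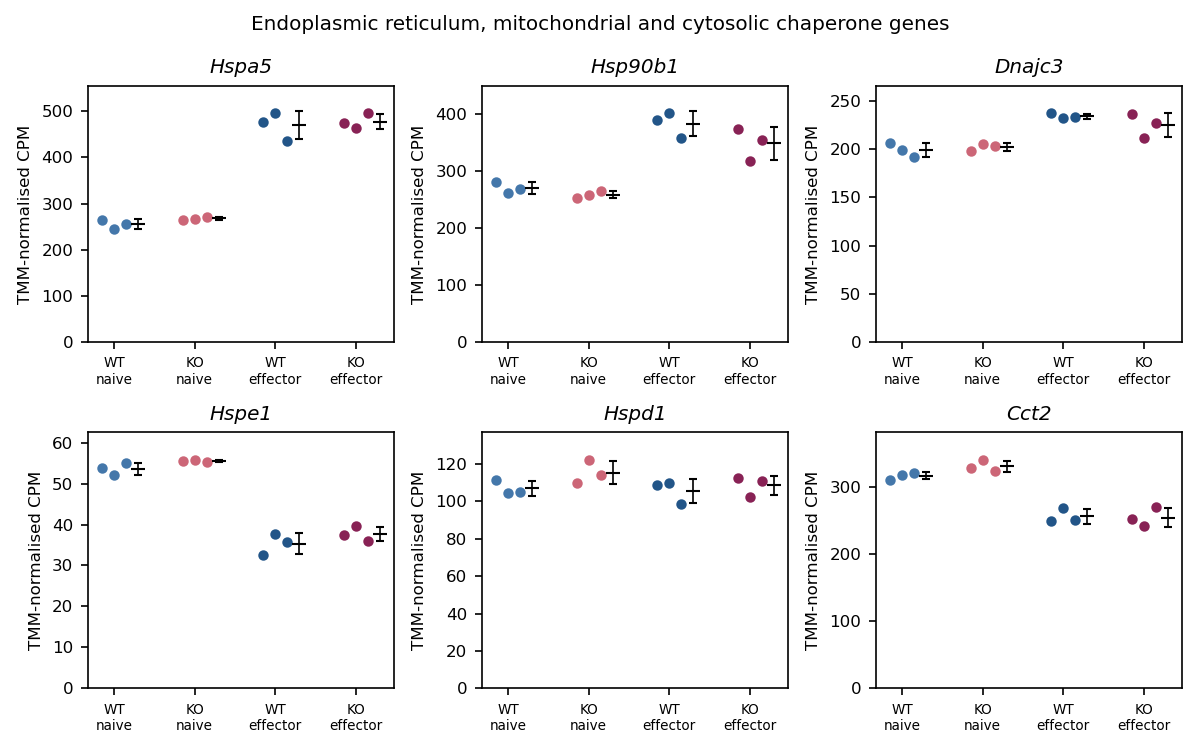
TMM-normalised CPM of Hspa5, Hsp90b1 and Dnajc3 (endoplasmic reticulum), Hspe1 and Hspd1 (mitochondria) and Cct2 (cytosol) in each library, with the mean and SD of each group, on axes that start at 0. The 3 ER genes are higher and Hspe1 and Cct2 lower in effector libraries, while the libraries of Hspd1 overlap.

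Of 10 mitochondrial chaperone genes, 1 was higher and 4 were lower in WT effector cells, against 30.2% and 25.9% of all tested genes, so that the share called was near that of all genes. Hspa9 (mortalin, the HSP70 that pulls proteins into the matrix) had 209.6, 206.0 and 202.0 against 157.0, 169.5 and 156.2 CPM, with no overlap, and fell by 0.36 on the log2 scale (SE 0.05, adjusted p = 4.5e-07). Dnaja3, its J-domain partner, fell by 0.32 (SE 0.06) and Dnajc28 by 1.33 (SE 0.17), whereas Dnajc4 rose by 0.37 ± 0.08. The pair that forms the matrix folding chamber moved unequally. Hspe1, its lid, had 53.7, 52.2 and 55.1 against 32.7, 37.7 and 35.7 CPM and fell by 0.60 on the log2 scale (SE 0.06, adjusted p = 6.4e-09). Hspd1, its barrel, had 111.7, 104.5 and 105.1 against 108.7, 110.1 and 98.4 CPM, which overlap (-0.02 ± 0.05, adjusted p = 0.78). Hspe1 and Hspd1 also share 112 exon bases on opposite strands. Reads of Hspe1 that fit elsewhere as well may have been split or dropped in counting, so its values are uncertain. Of 11 other mitochondrial proteostasis genes 2 rose and 5 fell. The protease Htra2 rose by 0.37 ± 0.07 and the inner membrane protease subunit Afg3l2 by 0.21 ± 0.05. The protease Yme1l1 (-0.27 ± 0.06), the mitochondrial HSP90 gene Trap1 (-0.19 ± 0.06), Lonp1 (-0.17 ± 0.05) and Spg7 (-0.14 ± 0.05) fell.

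The CCT ring folds actin and tubulin. Of its 8 tested genes 5 fell in WT effector cells, where 25.9% of all tested genes did, and none rose, with a median of -0.28. Cct2 had 311.6, 319.0 and 321.6 against 249.3, 269.7 and 251.8 CPM, with no overlap, and fell by 0.31 on the log2 scale (SE 0.05, adjusted p = 5.6e-06). Cct5, Cct6a, Cct8 and Cct4 fell by 0.31, 0.29, 0.28 and 0.25, each with an SE of 0.05 or less. Cct3 and Cct7 had values of -0.08 ± 0.05 and -0.08 ± 0.04 that did not pass (adjusted p = 0.20 and 0.092). Cct6b, a testis form, had 0.91 CPM or less. Tcp1, the first CCT subunit, whose name places it outside the set, fell by 0.14 on the log2 scale (SE 0.05, adjusted p = 0.014).

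Cytosolic HSP70 genes and their partners moved in both directions. Hspa8 fell by 0.25 on the log2 scale (SE 0.05, adjusted p = 0.00015), Dnajb1 by 0.31 (SE 0.06), Dnaja1 by 0.18 (SE 0.05) and Dnaja2 by 0.12 (SE 0.04). The HSP90 genes Hsp90ab1 (0.01 ± 0.05) and Hsp90aa1 (0.08 ± 0.05) did not pass, nor did Hsph1 (0.05 ± 0.09), while Hspa4l, another HSP110, rose by 0.67 ± 0.07. Bag3 had 7.9, 9.6 and 9.5 against 19.3, 19.5 and 18.6 CPM, with no overlap, and rose by 1.10 ± 0.11 (adjusted p = 4.8e-09). Bag1, an exchange factor that links HSP70 to the proteasome, rose by 0.41 ± 0.05. Of the 6 BAG genes 3 rose and 1 fell, where 30.2% and 25.9% of all tested genes did. Dnaja4 rose by 0.94 ± 0.08 from 15.5 to 17.7 CPM to 28.8 to 34.0 CPM, and overlaps Wdr61 on the other strand over 44.1% of its exon bases (Wdr61 itself 0.05, adjusted p = 0.54). Dnajb13, a sperm tail gene, rose by 1.26 ± 0.16 from 2.8 to 3.9 CPM to 7.3 to 9.5 CPM, and overlaps Ucp2, which rose by 0.47 ± 0.05 and holds 10880% of its count. Hspa12b, an endothelial HSP70, had no count in the 6 naive libraries and 21 counts in the WT effector libraries, a fold of at least 7.61 when the naive group is set to 3 counts in all (0.060 CPM). The heat shock list as a whole was split, with 3 of 13 higher and 5 lower, or 61.5% called. Of all tested genes 56.2% were called, so the share was near that of all genes.

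Among the tested genes Hspb11 fell the most. It had 13.36, 12.35 and 13.02 CPM in WT naive and 3.7, 3.8 and 3.4 CPM in WT effector libraries, with no overlap, and fell by 1.82 on the log2 scale (SE 0.12, adjusted p = 8.5e-12). Dnajc6 (auxilin, which uncoats clathrin vesicles with HSC70) fell by 1.16 (SE 0.13), Hspbap1 by 1.09 (SE 0.09) and Dnajb4 by 1.05 (SE 0.11). Hspa12a had 3.9 to 6.2 against 2.2 to 2.8 CPM and fell by 1.02 (SE 0.19), and Dnajb5 by 0.62 (SE 0.08). The DNAJC family, whose members share only the J domain, had 4 higher, 6 lower and 15 without a call of 25, or 40% called. Among other cochaperones 4 rose and 5 fell of 27, or 33.3% called. Both shares were below the 56.2% of all tested genes. Fkbp5, an HSP90 cochaperone of steroid receptors, rose by 1.06 ± 0.07, St13 (HIP) by 0.36 ± 0.06, Ppp5c by 0.24 ± 0.05 and Unc45a by 0.23 ± 0.05. Sugt1 fell by 0.30 on the log2 scale (SE 0.05) and Fkbp4 by 0.20 (SE 0.05).

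In KO cells 22 chaperone genes were higher and 29 lower in effector than in naive cells, where 31.6% of all tested genes rose and 26.8% fell (58.4% in all). Of the 16 higher and 26 lower genes of WT cells, 16 and 25 were called the same way in KO cells, and none was called in opposite directions. This agreement was not counted over all tested genes, so it cannot be read as particular to chaperones. The lower gene of WT cells without a call in KO cells was Dnajc10 (-0.06 ± 0.05, adjusted p = 0.35). In KO cells Hspa5 had 265.2 to 270.3 CPM in naive and 463.7 to 495.4 CPM in effector libraries (0.84 ± 0.05), and Hspe1 55.2 to 55.8 against 36.1 to 39.5 CPM (-0.56 ± 0.06). Dnaja1 fell by 0.14 on the log2 scale (SE 0.05, adjusted p = 0.025), a call lost in 5 of 20 alternatives, among them the fits without library 8, 9 or 10 (adjusted p up to 0.0999). Dnajb1 fell by 0.35 (SE 0.06, adjusted p = 1.2e-05). The WT and KO comparisons of the states share no library, but both come from the same fit and its estimate of the spread.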

How the data were processed

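A stranded mRNA kit was used on RNA of the sorted cells, per the labels' protocols. The authors deposited 1 table of raw counts per gene and 1 of FPKM, both for the same 12 libraries, per the file headers. On 11921 genes with at least 20 counts in every library, FPKM was the count over 1 length per gene and 1 size factor per library. The submitters' processing notes name STAR, Picard, DESeq2 1.30.0, mm10 and GRCm38. Neither the counter nor its strand setting is stated. Column names show the group and a running number that does not match the titles.

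The analysis used R 4.3.3. In edgeR 4.0.16, filterByExpr kept 15905 genes and 1 quasi-likelihood model with TMM factors was fitted to all 12 libraries (biological coefficient of variation 5.21%). The Benjamini-Hochberg adjustment ran over these genes, with calls at 0.05, and SE is the size of the log2 change over the root of F. Replicate libraries of each group stood further apart than counting noise (chi-square per gene 2.25 to 5.89) and each was kept. In simulated counts, 100 genes given a log2 difference of 0.3 were recovered at 65% in naive and 62% in effector cells, and 100 given 0.5 at 91% and 88%. These genes had means of at least 5 CPM in both states, so recovery of lower genes was not measured. Of the calls in these counts, 4.29% and 6.83% were of genes given no difference. Floors cover counting error only.

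The members, lists and rules were chosen with earlier results of these data known. Named genes are the members called in a KO comparison, the 10 largest called rises and falls between states at 5 CPM or more, 16 fixed members, the called genes of 3 further lists and the 6 with the smallest p between states in each. Others are given as parts of a described group and were chosen after their values were seen. As alternatives, edgeR was run with size factors of DESeq2, with no low-count filter, with a 5 CPM minimum and on the compared groups alone. DESeq2 1.42.0, limma-voom (limma 3.58.1), limma on log2(FPKM + 1) and log2(FPKM + 0.1) and leaving out each library were the others. Protein sequences were not used here. The values of 1 tested chaperone gene and of 1 sort marker are not reported here, and the counts include that gene.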

Additional observations from a re-analysis of the deposited data

How the results depend on the processing

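Among 49 named genes, no value called in edgeR changed sign under the alternatives run for each (17 to 20 a gene and comparison). Some values without a call changed sign, such as Bag1 for KO against WT in effector cells (-0.04, and up to 0.02). Other genes were not recomputed. For KO against WT in naive cells, the number of chaperone genes called higher (2) was 4 with DESeq2, 5 with no filter on low counts, 0 with limma on log2(FPKM + 1) or log2(FPKM + 0.1), and 4 in a fit of only the groups compared. In effector cells the number higher (5) was 1 with limma on either FPKM scale and 3 in a fit of only the groups compared, and the number lower (1) was 0 in these 3 fits. Leaving out 1 library gave 1 to 3 higher in naive cells, and 1 to 5 higher and 0 to 1 lower in effector cells. The counts for the heat shock list, whose alternatives were chosen after seeing the data, were 4 with DESeq2, 5 with no filter, 0 with limma on either FPKM scale and 4 in a fit of only the groups compared in naive cells (1 to 3 with a library left out). In effector cells they were 1 with limma on either FPKM scale and 1 to 4 with a library left out. The causes were not tested. The counts between effector and naive cells stayed within 1.5 times of their values, for the whole set and for the ER, mitochondrial and CCT lists, and the difference of the KO effects was called for 0 members under the alternatives run. Of 42 named genes called between the states in WT cells, 2 lost the call under some alternative (Lonp1 and Spg7), and 1 gene gained one. Of 42 called in KO cells, 4 did (Dnaja1, Hspa12a, Hspa1b and Yme1l1), and 3 gained a call (Afg3l2, Hsph1 and Lonp1). DESeq2's size factors moved the median of all genes by less than 0.1. No paired analysis was possible because the columns carry no replicate numbers that match the titles. With 3 libraries a group and calls near a log2 change of 0.3, genes with smaller changes could be missed.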
